A study of Mus musculus with 6 samples.

Results

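Splenic macrophages clear dying cells and worn red cells. Followed here in sorted germinal centre B cells were 10 genes linked to such macrophages: Vcam1, Slc40a1, Trf, Hmox1, Csf1r, C1qa, C1qb, C1qc, Apoe and Mertk. They were chosen by symbol, mainly as genes of iron handling and of the uptake of dying cells, with earlier results of these data known. All 10 were found among the 23412 rows of the count table. The cells were positive for B220, GL7 and Fas and were collected by flow cytometry from spleens on day 10 after intraperitoneal injection of sheep red blood cells. Control mice had the genotype Cg1-cre(+/-), written in one protocol with DAF-Tg(+/+). DAF-TM mice had Cg1-cre(+/-) and DAF-TM(fl/fl), a cassette at the R26 locus, so both groups carried the Cre allele and received the same immunization. Cg1-cre expresses Cre recombinase in B cells that transcribe the IgG1 constant region, so the cassette is switched on in germinal centre B cells. The sources used here give no strain, age or sex, and do not say whether mice were pooled.

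Red pulp macrophages engulf old red cells, free iron from haem with the enzyme HMOX1, and return it to the blood through the exporter ferroportin, the product of Slc40a1. Tingible body macrophages sit inside germinal centres and take up B cells that die there. The receptor MERTK and the C1q protein help macrophages to recognise such cells, and APOE carries the lipid that is taken up with them.

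Each group had 3 labelled replicates. DAF-TM replicate 3 repeated every value of replicate 2, and both were counted as 1 sample, DAF-TM library 2. The comparison had 3 control and 2 DAF-TM libraries, with 7257339 to 12783965 counts each. Cd55, the mouse gene for DAF, stood at 23.4 to 34.3 normalised CPM (counts scaled to the library's effective size) in the controls and at 712 and 725 with DAF-TM. The cell type of the labels showed in its markers: Ms4a1, the gene for CD20, reached 2900 to 4270 CPM. Of 18 germinal centre B cell genes none was called at an edgeR adjusted p under 0.05. At an unadjusted p under 0.05 there were 3, and 0 were called with DESeq2 or limma-voom. Log2 fold changes lay below 0 in 17, while 53.9% of all genes tested lay above 0. Both DAF-TM libraries lay below all controls in 7 of the 18 and above them in none. Over all genes 11.3% lay above, and the share below was not counted, so the 7 have no background here. DAF-TM library 1 stood apart in that it held both Xist, at 291.5 unadjusted CPM, and Y-linked reads, at 284.1. The other libraries held mainly one or the other. Control libraries 2 and 3 held Y-linked reads, at 652.5 and 482.5 unadjusted CPM, with Xist at 2.425 and 2.894. Control library 1 and DAF-TM library 2 held Xist, at 744.1 and 797.1, with Y-linked reads at 0.1039 and 0.

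Of the 10 genes, 5 were higher in DAF-TM cells: Vcam1, Slc40a1, Trf, Csf1r and C1qb. None was lower, and Hmox1, C1qa, C1qc, Apoe and Mertk did not pass. Over all 18767 genes tested, 0.373% were called higher and 0.41% in either direction. The median log2 fold change was 1.19 over the 10 genes and 0.03 over all genes. In 8 of the 10, both DAF-TM libraries lay above all controls, against 11.3% of all genes. The 10 were chosen with earlier results of these data known, so these shares do not test them as a set. Without DAF-TM library 1, 0 of the 10 were called (0.0615% of all genes were called higher in that fit), and their median log2 fold change was 1.005. Without DAF-TM library 2, 4 were called higher, against 0.558% of all genes.

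**Figure D1:**
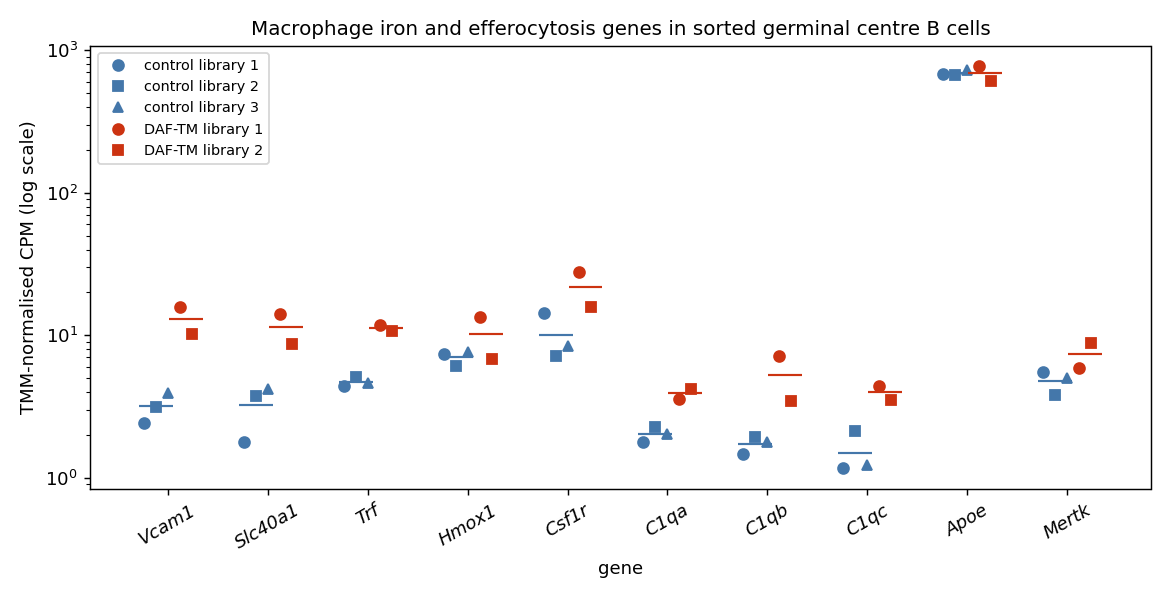
Normalised CPM on a log axis for the 10 genes in 3 control (blue) and 2 DAF-TM (red) libraries, with a short line at each group mean. Both red points lie above all blue ones for every gene but Hmox1 and Apoe, and Apoe stands near 700 CPM while the other 9 stay below 30.

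Since these are sorted cells measured in bulk, more cells of a type and more RNA per cell cannot be told apart. Summed over the 10 genes without Apoe, the libraries held 40.4, 35.4 and 39.0 CPM in controls 1 to 3, and 104 and 72.4 in DAF-TM libraries 1 and 2. With Apoe they held 718, 704 and 772 against 881 and 680, so the groups overlapped. Apoe took 94.4% to 95.0% of the summed CPM in the controls and 88.2% and 89.4% with DAF-TM.

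Vcam1 encodes an adhesion molecule that binds the integrin of ITGA4 and ITGB1 on lymphocytes, and red pulp macrophages, stromal cells and follicular dendritic cells are known to carry it. It lies on chromosome 3 (116109949 to 116129688, minus strand, GRCm38). It had 23, 37 and 29 counts in the controls against 177 and 122 with DAF-TM, or 2.43, 3.14 and 3.95 against 15.9 and 10.3 CPM. Both DAF-TM libraries lay well above every control. The rise was 4.16-fold (log2 fold change 2.06 with an SE of 0.32, edgeR adjusted p = 4.81e-07). Vcam1 was called in 4 of 5 fits that left out 1 library and in 9 of 9 other alternatives. Without DAF-TM library 1 it stood at 1.70 with an adjusted p of 0.0645.

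Beside Vcam1, 9 genes of integrin chains, membrane linkers and the adhesion molecules ICAM1 and ICAM2 were read. Among these 9, Itgb7 rose and none fell, against 0.373% of all genes called higher and 0.41% in either direction. Itgb7 encodes the integrin chain that pairs with ITGA4 in gut-homing cells. It stood at 23.0, 20.2 and 24.0 CPM in the controls and at 63.0 and 33.7 with DAF-TM (2.17-fold, edgeR adjusted p = 1.31e-06, and 0.518 without DAF-TM library 1). The abundant ones did not pass: the membrane linker genes Msn and Ezr had log2 fold changes of -0.17 and 0.00, and the integrin chain Itgb1 one of -0.23. The median of the 9 genes was 0.00.

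Slc40a1 encodes ferroportin, the only known iron exporter of mammalian cells. It lies on chromosome 1 (45908068 to 45926523, minus strand, GRCm38). It stood at 1.80, 3.73 and 4.22 CPM in the controls against 14.2 and 8.70 in DAF-TM libraries 1 and 2, so the groups did not overlap. It rose 3.53-fold (log2 fold change 1.82 with an SE of 0.33, edgeR adjusted p = 4.86e-05). It was called in 4 of 5 fits that left out 1 library and in 9 of 9 other alternatives. The exception was the fit without DAF-TM library 1, at 1.42 with an adjusted p of 0.353.

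Ferroportin and the ferritin chains of Fth1 and Ftl1 share an iron-responsive element in the 5′ untranslated part of their mRNA, a hairpin through which iron controls their translation. The element is shown for these 3 genes because their mRNAs share this control and Slc40a1 alone of them was called here. The loop letters CAGTGN, with a C 6 letters before them, were searched on the sense strand in 1 transcript per gene of GENCODE M21 (GRCm38). They were found in 8.87% of 20705 such untranslated parts. Capitals mark the 6 loop letters.

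Slc40a1, chr1:45925469-45925494, minus strand: ccaacttcagctaCAGTGTtagctaa
Fth1, chr19:9982731-9982756, plus strand: tttcctgcttcaaCAGTGCttgaacg
Ftl1, chr7:45459783-45459808, minus strand: tgtcttgcttcaaCAGTGTttgaacg

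The ferritin genes did not follow Slc40a1. Fth1 stood at 1363, 1637 and 1283 CPM in the controls and at 1241 and 1376 with DAF-TM, and Ftl1 at 423, 461 and 417 against 453 and 396. Their log2 fold changes were -0.13 and -0.03 (adjusted p = 0.956 and 0.987). Both have processed pseudogenes, so their counts are uncertain. A level of mRNA says nothing of the translation that the hairpin controls.

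Trf encodes transferrin, the iron carrier of plasma, made mostly in liver and also by some macrophages. It lies on chromosome 9 (103204001 to 103230444, minus strand). Its values were the most even of the 5 that rose: 4.44, 5.09 and 4.63 CPM in the controls and 11.8 and 10.8 with DAF-TM. The rise was 2.39-fold (log2 fold change 1.25 with an SE of 0.31, edgeR adjusted p = 0.0202). Left-out libraries moved its log2 value little, from 1.18 to 1.31. The call was kept in 1 of those 5 fits, without control library 2, and in 6 of 9 other alternatives. The adjusted p was 0.4 without DAF-TM library 1, 0.053 without DAF-TM library 2, 0.224 and 0.129 without control libraries 1 and 3, and 0.0895 with the Y-linked share of counts as a covariate. It was 0.105 with upper-quartile factors and 0.35 with the replicate block that takes DAF-TM library 2 as number 2.

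Hmox1, which encodes the haem-degrading enzyme induced by haem and oxidative stress, lies on chromosome 8 (75093621 to 75100589, plus strand). It stood at 7.40, 6.11 and 7.63 CPM in the controls and at 13.5 and 6.84 with DAF-TM. Only DAF-TM library 1 was above the controls, and library 2 lay among them. The log2 fold change of 0.53 (SE 0.30, edgeR adjusted p = 0.91) turned to -0.04 without DAF-TM library 1.

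Of 29 other genes of iron and haem handling, none passed in either direction (2 at an unadjusted p under 0.05, and 0 with DESeq2 or limma-voom). Their median log2 fold change was 0.06. The most abundant after the ferritins was Blvrb, a reductase of the haem breakdown path, at 483, 309 and 395 CPM in the controls and 371 and 243 with DAF-TM. It was called lower (-0.54, edgeR adjusted p = 0.0133) in the replicate block that takes DAF-TM library 2 as number 3, and in no other alternative. Tfrc, the receptor that takes up transferrin, was named after its values were seen. It stood at 186, 231 and 156 CPM in the controls and at 138 and 133 in both DAF-TM libraries, below every control, with a log2 fold change of -0.50 (SE 0.17, edgeR adjusted p = 0.337). Spic, the transcription factor of red pulp macrophages, stood at 0.952, 1.53 and 0.953 CPM against 2.16 and 1.18, and its groups overlapped.

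The 3 genes of C1q lie side by side on the minus strand of chromosome 4: C1qb at 136880129 to 136886187, C1qc at 136889804 to 136893065 and C1qa at 136895917 to 136898803 (GRCm38). Their chains assemble into C1q, the recognition part of the classical complement pathway, which also binds dying cells. C1qb had 14, 23 and 13 counts in the controls and 79 and 41 with DAF-TM, or 1.48, 1.95 and 1.77 against 7.11 and 3.46 CPM. It rose 3.02-fold (log2 fold change 1.59 with an SE of 0.42, edgeR adjusted p = 0.0385). C1qc, at 1.16, 2.12 and 1.23 against 4.41 and 3.55 CPM, had a log2 fold change of 1.37 (SE 0.45) and an adjusted p of 0.291. C1qa, at 1.80, 2.29 and 2.04 against 3.60 and 4.22 CPM, had one of 0.93 (SE 0.43, adjusted p = 0.821). In none of the 3 did the groups overlap.

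The call of C1qb was kept in 1 of 5 fits that left out 1 library, the one without DAF-TM library 2, and in 4 of 9 other alternatives. It stood at 0.98 (adjusted p = 0.558) without DAF-TM library 1, and the adjusted p was 0.142 to 0.45 without 1 control. It was 0.267 with DESeq2, 0.168 with limma-voom and 0.211 with upper-quartile factors. Both replicate blocks ended the call, at 0.665 with DAF-TM library 2 as number 2 and 0.0533 with it as number 3. C1qb took 47.0% of the C1q counts in DAF-TM library 1 (95% Wilson interval 39.6% to 54.5%, 168 counts) and 30.8% in DAF-TM library 2 (23.6% to 39.1%, 133 counts). The controls gave 30.7% to 35.1% from 37 to 75 counts. These intervals cover counting error only. C1qa, in contrast, had a share of 23.8% in DAF-TM library 1 against 36.0% to 40.5% elsewhere.

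**Figure D2:**
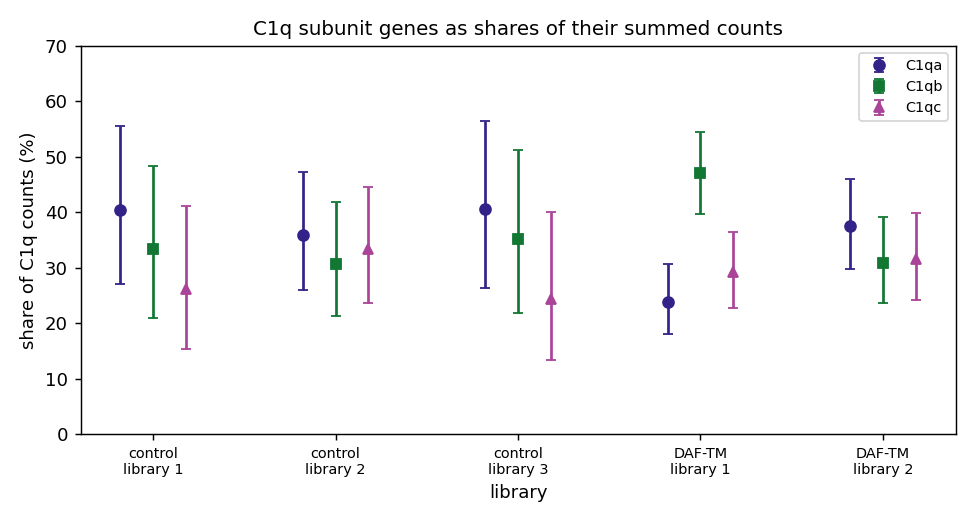
Share of each C1q gene in the summed C1q counts of a library, in percent, with 95% Wilson intervals for counting error. In DAF-TM library 1 C1qb stands at 47.0% and C1qa at 23.8%, while the 3 shares of the other libraries lie between 24.3% and 40.5%.

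All 3 neighbouring C1q genes were higher in each DAF-TM library. The starts of C1qb and C1qc are shown, since no window was listed for C1qa. The 250 bases before each start are from RefSeq (GRCm38.p6), printed 5′ to 3′ on the gene's strand. Capitals mark the letters GAGGAA, a core of the sites of PU.1, on either strand. They were found once in each, beginning 30 bases before the start of C1qb and 193 before that of C1qc, and in 23.3% of 32851 windows of this length. Of the 3 windows listed for Apoe, which was not called, 2 held them, and the window of Mertk held none. Csf1r, which was called, was not read for these letters.

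C1qb, chr4:136886201-136886450: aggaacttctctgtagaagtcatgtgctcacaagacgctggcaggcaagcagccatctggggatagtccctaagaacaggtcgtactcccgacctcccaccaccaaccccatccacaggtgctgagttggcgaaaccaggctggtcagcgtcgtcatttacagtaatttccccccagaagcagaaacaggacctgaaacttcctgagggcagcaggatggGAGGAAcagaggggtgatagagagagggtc
C1qc, chr4:136892915-136893164: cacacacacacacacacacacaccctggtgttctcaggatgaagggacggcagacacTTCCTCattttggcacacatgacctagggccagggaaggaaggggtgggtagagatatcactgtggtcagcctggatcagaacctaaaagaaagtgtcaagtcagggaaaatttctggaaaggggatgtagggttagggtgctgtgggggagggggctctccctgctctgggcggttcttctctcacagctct

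Of 12 other genes at the start of the classical pathway and its C1q receptors, none passed (0 at an unadjusted p under 0.05, and 0 with DESeq2 or limma-voom). C1ra, C1s and C4b, which encode the proteases and the substrate that act after C1q, had log2 fold changes of 0.30, 0.85 and 0.14. The median of the 12 was 0.12. Calr, the gene of calreticulin, a surface partner of C1q, stood at 431 to 452 CPM in the controls and at 569 and 421 with DAF-TM.

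Mertk encodes a receptor kinase that binds dying cells through the bridging proteins GAS6 and PROS1. It lies on chromosome 2 (128698956 to 128802894, plus strand). It stood at 5.50, 3.82 and 5.04 CPM in the controls and at 5.94 and 8.78 with DAF-TM, so the groups did not overlap. DAF-TM library 2 was the higher one here, the reverse of the order in Vcam1, Slc40a1, Csf1r and C1qb. The log2 fold change of 0.63 did not pass (SE 0.34, edgeR adjusted p = 0.897), and 2 SE on either side ran from -0.06 to 1.31. Axl, a related receptor named after its values were seen, stood at 4.65, 4.66 and 5.72 CPM against 8.10 and 8.87 (log2 fold change 0.77, SE 0.33, adjusted p = 0.768).

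Apoe encodes apolipoprotein E. It lies on chromosome 7 (19696109 to 19699188, minus strand). It stood at 678, 669 and 733 CPM in the controls and at 777 and 607 with DAF-TM, so that the DAF-TM libraries enclosed the controls. The log2 fold change was -0.0028 (SE 0.17, edgeR adjusted p = 1), and 2 SE on either side ran from -0.33 to 0.33. Per kilobase of the longest coding transcript, Apoe stood at 492 CPM in the controls, against 0.915 for Vcam1 and 4.49 for Hmox1, the lowest and highest of the other 9.

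Of 22 other receptors and bridging proteins for the uptake of dying cells, none passed (3 at an unadjusted p under 0.05, and 0 with DESeq2 or limma-voom), with a median log2 fold change of 0.16. Of 26 genes of engulfment and of the response to engulfed lipid, none passed either (1 at an unadjusted p under 0.05, and 0 with DESeq2 or limma-voom), and their median was 0.13. Among the latter the uncoupling protein gene Ucp2 stood at 1042 to 1193 CPM in the controls and at 1193 and 939 with DAF-TM.

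Csf1r encodes the receptor for the growth factor CSF1, on which macrophages depend. It lies on chromosome 18 (61100598 to 61132149, plus strand). It stood at 14.4, 7.12 and 8.44 CPM in the controls and at 27.7 and 15.7 with DAF-TM, and control library 1 came close to DAF-TM library 2. It rose 2.18-fold (log2 fold change 1.12 with an SE of 0.23, edgeR adjusted p = 0.00119). The call was kept in 3 of 5 fits that left out 1 library and in 7 of 9 other alternatives. Csf1r stood at 0.65 (adjusted p = 0.547) without DAF-TM library 1, and the adjusted p was 0.381 without control library 3, 0.187 with DESeq2 and 0.0804 with upper-quartile factors.

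Of 10 other tested genes around Csf1r, Tyrobp rose and none fell, against 0.373% of all genes called higher and 0.41% in either direction. Tyrobp encodes the adaptor DAP12 of myeloid and natural killer cell receptors. It stood at 9.94, 7.55 and 8.04 CPM against 25.1 and 17.2 (2.49-fold, edgeR adjusted p = 3.33e-05, and 0.371 without DAF-TM library 1). The ligand gene Csf1 did not pass, at 6.03, 5.17 and 7.22 CPM against 7.29 and 7.43. Sfpi1, the gene of the transcription factor PU.1, which B cells also use, stood at 134, 139 and 148 CPM against 127 and 121. Irf8, a transcription factor of germinal centre B cells and myeloid cells alike, stood at 653 to 781 CPM in the controls and at 725 and 627 with DAF-TM.

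**Figure D3:**
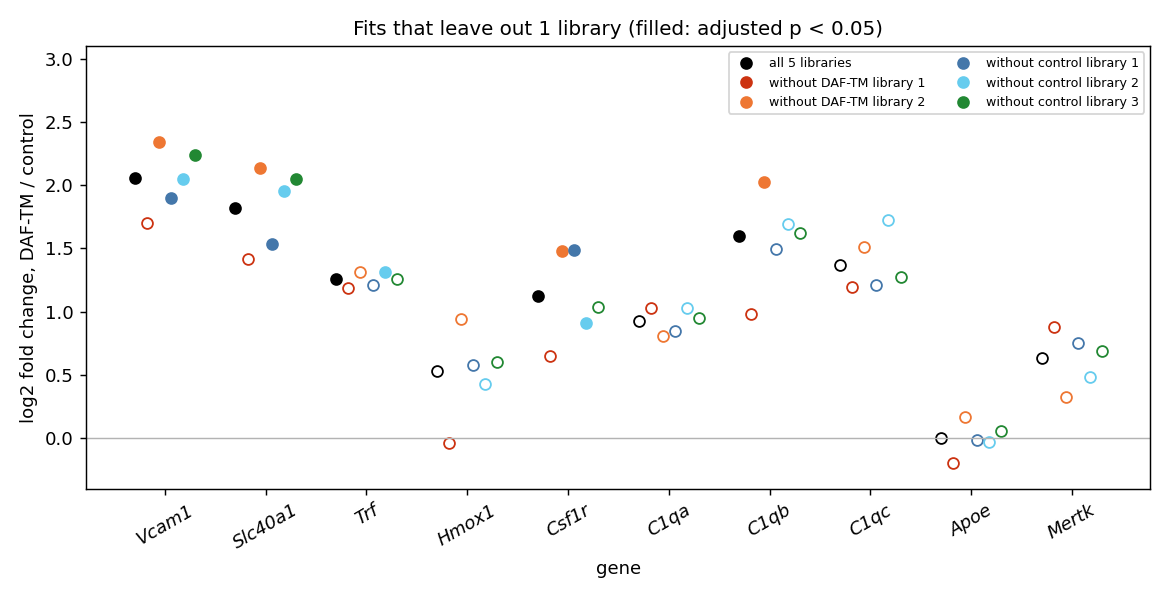
Log2 fold change (DAF-TM over control) of each gene with all 5 libraries and with 1 library left out, filled where the edgeR adjusted p was under 0.05. No gene is filled without DAF-TM library 1, and Vcam1 and Slc40a1 are filled in every other fit.

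Genes that define macrophages were read beside the 10. Of 19 tested none was called with all libraries (4 at an unadjusted p under 0.05, and 0 with DESeq2 or limma-voom). Log2 fold changes lay above 0 in 14, against 53.9% of all genes, and the median was 0.36. In 6 of the 19 both DAF-TM libraries lay above all controls, and in none below, against 11.3% above over all genes. None of the 20 matched markers was at 0 in any library. Their summed level was 164.5, 115.5 and 144 CPM in controls 1 to 3 and 140 and 122 in DAF-TM libraries 1 and 2. Lyz2, the lysozyme gene of myeloid cells, made up much of it, at 95.5, 45.0 and 71.0 CPM against 57.3 and 32.6. It was called lower in 3 alternatives: without control library 2 (-0.90), with the Y-linked share as a covariate (-0.77) and with the replicate block that takes DAF-TM library 2 as number 3 (-0.92). Siglec1, of marginal metallophilic macrophages, stood at 13.2, 9.41 and 18.4 CPM against 8.10 and 19.5. Cd68, a lysosomal protein gene, lay between 10.5 and 14.5 in all 5 libraries, with both ends in the DAF-TM group.

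The surface marker gene Adgre1 (F4/80), listed as Emr1 and named after its values were seen, stood at 7.83, 4.32 and 6.67 CPM against 10.7 and 9.04. Its log2 fold change was 0.66 (SE 0.31, edgeR adjusted p = 0.829). Cd163, the haemoglobin scavenger receptor of red pulp macrophages, stood at 2.54, 3.56 and 1.77 CPM against 3.33 and 3.55. Timd4, a receptor of tingible body macrophages for dying cells, stood at 1.69, 2.54 and 3.13 against 2.79 and 3.04. Without Lyz2 and Cd68, a choice made after their values were seen, the other 18 markers summed to 56.5, 57.7 and 62.1 CPM in the controls and to 68.3 and 79.4 with DAF-TM. That sum was highest in DAF-TM library 2, whereas the sum of the 9 genes without Apoe was highest in library 1. The part of macrophage RNA in the rise of the 5 genes was not tested.

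**Figure D4:**
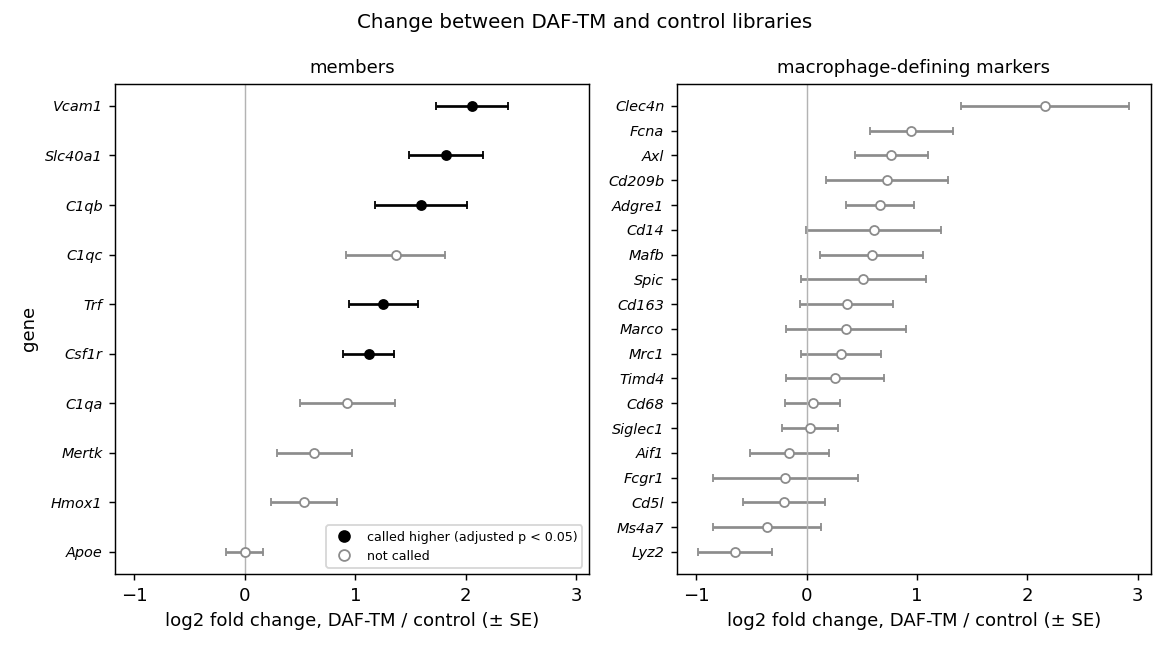
Log2 fold change (DAF-TM over control, ± SE) of the 10 genes on the left and of 19 tested macrophage markers on the right, filled where called higher. On the left 5 points are filled, between 1.12 and 2.06, and on the right none, with Lyz2 lowest at -0.65 and Clec4n highest at 2.16.

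Markers of other cells that the gate could hold moved unevenly with the 10 genes. Of 18 T and natural killer cell genes 8 rose and none fell, against the 0.373% given above, and with 1 library left out that count was 0 to 7, with 0 in the fit without DAF-TM library 1. DESeq2 called 2 of them and limma-voom 6. The 18 summed to 306, 346 and 329 CPM in the controls and to 382 and 349 with DAF-TM. Lck, at 213 to 285 CPM, made up most of that sum and lay below every control in both DAF-TM libraries. It was left out after its values were seen. The other 17 summed to 57.0, 61.0 and 77.5 CPM in the controls and to 169 and 125 with DAF-TM. Of 15 monocyte and dendritic cell genes Siglech alone rose (edgeR adjusted p = 0.00096, 0.245 without DAF-TM library 1 and 0.055 without control library 1), and the count was 3 without DAF-TM library 2, 2 with each replicate block and 0 without DAF-TM library 1 or control library 1. The list summed to 137 to 163 CPM in the controls and to 235 and 173 with DAF-TM. Of 11 neutrophil genes Chi3l3 fell and none rose, against 0.41% of all genes called in either direction. The list summed to 94.1 to 291.5 CPM against 34.2 and 86.1. The call of Chi3l3 was lost with DESeq2 (adjusted p = 0.135), with limma-voom (0.237) and without either DAF-TM library (0.537 and 0.565). The count for the list was 5 and 6 with the 2 replicate blocks and 2 or 3 without 1 control. Endothelial genes (13 tested), stromal and follicular dendritic genes (14) and erythroid genes (8) gave no call (2, 1 and 0 at an unadjusted p under 0.05, and 0 each with DESeq2 and limma-voom). Log2 fold changes lay above 0 in 12 of the 14 stromal and 11 of the 13 endothelial genes, against 53.9% of all genes. They did so in 17 of the 18 T and natural killer cell genes and 14 of the 15 monocyte and dendritic cell genes. In the erythroid list this held for 4 of 8, and in the neutrophil list for 4 of 11. Cxcl12 was among the 12 stromal genes, at 7.62, 6.44 and 7.08 CPM against 7.65 and 11.6. Ccl19 and Ccl21a, which stromal cells of the T zone make, and the globin genes Hba-a1, Hba-a2 and Hbb-b2 were listed at 0 in every library. Genes of these families have near-identical copies, so these zeros are uncertain, and the globin gene listed as Beta-s stood at 8.36 to 20.6 CPM. What these cells contributed to the 10 genes was not tested.

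**Figure D5:**
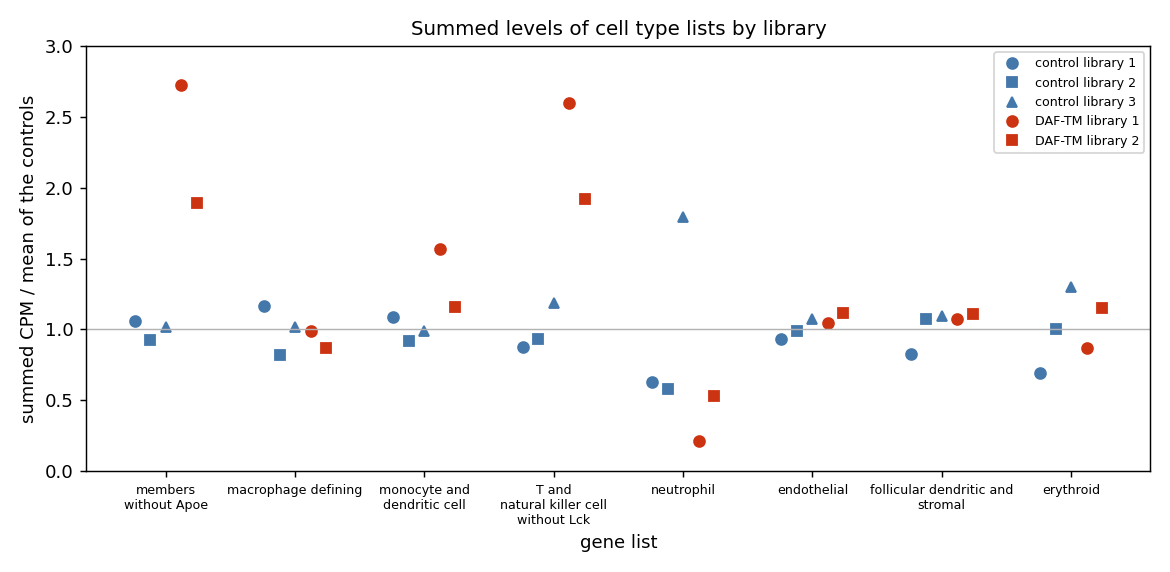
Summed normalised CPM of 8 gene lists in each library, divided by the mean of the 3 controls. The 9 genes without Apoe and the T and natural killer cell list without Lck lie above all controls in both DAF-TM libraries, as does the monocyte and dendritic cell list, while the macrophage-defining list lies among the controls with Lyz2 and Cd68 in it and above them without these (not drawn, 68.3 and 79.4 CPM against 56.5 to 62.1).

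The profiles of the 10 genes over the 5 libraries were also set beside those of 15326 other genes with a mean of at least 1 CPM, by the Euclidean distance of centred log2(CPM + 0.5). The nearest to Vcam1 were Ccr7 (0.386), the chemokine receptor of the T zone, Siglech (0.462), a receptor of plasmacytoid dendritic cells, and Nkg7 (0.467), a cytotoxic granule gene. The nearest to Slc40a1 were the natural killer receptor genes Klrk1 (0.354) and Klrb1c (0.374), and then Vcam1 (0.468). C1qb lay nearest to Klf2 (0.286), Fasl (0.339) and S1pr1 (0.373), Csf1r to Klrc1 (0.413), Fxyd5 (0.422) and Fos (0.441), and Trf to Il18 (0.246), Ifi203 (0.268) and Hhla1 (0.276). Ifi203 was also the second nearest to C1qc (0.206), after Serpina3h (0.174) and before Lhx2 (0.283).

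C1qc was not called, although it shared Ifi203 with Trf, which was. The nearest to Hmox1, also not called, were Cyfip1 (0.112), Gimap7 (0.144) and Slc17a9 (0.154), and those to Mertk were Slitrk5 (0.0748), Mamdc2 (0.122) and Fgfr1 (0.123). Apoe lay nearest to Tsc2 (0.0385), Rps6kb2 (0.0395) and Gle1 (0.0421), and C1qa to Six3 (0.097), Pydc4 (0.0993) and Il18r1 (0.106). Within the 10, the closest pairs were Trf with C1qc (0.407), Vcam1 with Slc40a1 (0.468) and Trf with C1qa (0.484). These distances are descriptions over 5 libraries that share depth and normalisation.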

How the data were processed

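RNA of sorted cells was sequenced in 6 labelled samples after SMART-Seq amplification without molecular identifiers, and 5 libraries were used because 2 columns were identical. The Wilson intervals cover counting error only, and they take each read as independent, which amplified copies need not be. The ranges of 2 SE come from the edgeR fit and hold its spread between libraries as well. The authors deposited unnormalized read counts, 1 row for each gene symbol. The submitters' processing notes name the build mm10 and the tools bcl2fastq, HISAT2 and featureCounts. For versions, annotation and strand nothing is given in the sources used here. No library is tied to separate mice, so p-values refer to the spread between libraries, taken mostly as shared over genes.

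Counts were tested over all genes with edgeR 4.0.16 in R 4.3.3, beside limma 3.58.1. The fit used TMM factors on whole-column totals, filterByExpr, robust glmQLFit and two-sided glmQLFTest, with Benjamini-Hochberg adjustment at 0.05. SE is the log2 fold change over the root of F. The fit had 3 residual degrees of freedom and a median of 1139 prior ones. The p-values and SE thus rest mostly on a spread shared over genes and little on a gene's own. The procedure was tested on simulated data. All 10 genes passed the count filter. Alternatives included DESeq2 1.42.0 and limma-voom. The 27 rows whose names had become dates held at most 0.266% of counts.

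The 10 genes and all lists were chosen with earlier results of these data known. Named were the 10, all called list genes, the 3 most abundant of a list where it helped, and the 3 nearest profiles, leaving out sex-linked genes and predicted models; further list genes were named after their values were seen. Of the list genes 4 had no row, and positions and lengths came from GENCODE M21 (GRCm38). Promoter windows from the RefSeq table were read for Apoe, C1qb, C1qc and Mertk. Windows on chromosome 18, where Csf1r lies, were left out of that reading.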

Additional observations from a re-analysis of the deposited data

How the results depend on the processing

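Directions held in every alternative for Vcam1, Slc40a1, Trf, Csf1r, C1qb, C1qa, C1qc and Mertk, where a value could be had. With 1 library left out Hmox1 ran from -0.043, without DAF-TM library 1, to 0.94, and Apoe from -0.20, without DAF-TM library 1, to 0.16, without DAF-TM library 2. Apoe, at -0.0028, also turned to 0.055 without control library 3, 0.044 with the Y-linked share as a covariate, 0.029 with the replicate block that takes DAF-TM library 2 as number 2 and 0.059 with upper-quartile factors; the cause was not tested.

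Of the 10 genes 5 were called, against 3 with DESeq2, 2 with upper-quartile factors and 0 to 4 when 1 library was left out. Over all genes 77 were called, against 32 with DESeq2, 49 with limma-voom, 39 with upper-quartile factors and 14 to 118 when 1 library was left out. Upper-quartile factors put the median of all genes at 0.10. DESeq2 gave no adjusted p for C1qa and C1qc.

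The labels tie no number to a litter or day. The deviations of same-numbered libraries correlated at -0.13 for number 1 and -0.25 for number 2, and at 0.13 for number 3, where DAF-TM library 2 is taken as that number. With 2 DAF-TM libraries, deviations from their mean mirror each other, so each control correlated with both at equal size and opposite sign. These values therefore cannot decide whether the numbers match. With the replicate block, 3 of the 10 genes were called with DAF-TM library 2 as number 2 and 4 with it as number 3 (61 and 105 genes in all). A lone DAF-TM library was assumed to vary like the other group. C1q counts of 9 to 79 limit the precision of those genes.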
